A study of Danio rerio with 4 samples.

Results

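Endoderm cells of the shield stage zebrafish gastrula were studied in 4 single-cell RNA libraries, 2 of sibling embryos and 2 of Mrbm24a embryos. A cell was taken as endoderm when it held at least 3000 UMIs (unique molecular identifiers, one per captured RNA molecule), when sox32 reached at least 5 per 10000 of its UMIs, when its sox17 value exceeded 0.5, and when krt92, a gene of the enveloping layer, and foxj1a, a gene of the dorsal forerunner cells, were each at most 0.5. These limits held for 304 of 14455 cells, namely 108 in sibling 1, 50 in sibling 2, 61 in Mrbm24a 1 and 85 in Mrbm24a 2. The sibling embryos were labelled wild type. The Mrbm24a embryos lacked maternal Rbm24a, an RNA-binding protein: they came from mothers homozygous for an rbm24a-RFP knock-in allele in which Cas9, driven by the oocyte promoter zpc, met a transgene carrying 4 guide RNAs and a BFP marker, and they were picked as BFP-positive and RFP-negative embryos of founder females. The embryos of a library were pooled, and 33 embryos are stated for a dissociation. The labels give the age of the embryos as the shield stage, and the paper also gives it in hours after fertilization. The libraries of a genotype are not stated to come from separate matings, so p-values measure the spread between these libraries, which may be technical.

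In zebrafish, endoderm forms at the blastula margin from cells that receive a strong Nodal signal. Nodal acts through the transcription factors Mixl1, Gata5 and Eomesa to switch on sox32, and Sox32, an HMG-box factor, in turn switches on sox17. The endoderm cells then leave the margin, spread over the yolk by a Rac-driven random walk and later are tethered to the mesoderm through the chemokine receptor Cxcr4a. They go on to form the gut tube and its glands.

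The label was checked against the endoderm markers. Besides the genes of the rule, the markers gata5, cxcr4a and prdx5 were each listed above 0.5 in most endoderm cells, and 96.4% of the 304 cells held 2 or 3 of these, against 33.7% of the 11034 remaining cells of 3000 or more UMIs and 22.0% of the 1413 mesoderm cells described further on, whose median of 13553 UMIs was near the 15361 of the endoderm cells. The lowest share among the libraries was 91.8%, in Mrbm24a 1. Of the 12 genes of the enveloping layer list, the summed level without krt92 was 186, 35.5, 73.7 and 14.9 CPM (counts per 1e+06 UMIs of the summed cells) in the endoderm cells of sibling 1, sibling 2, Mrbm24a 1 and Mrbm24a 2, against 1343 to 2285 CPM in the remaining cells. Since the rule limits krt92, a gene of that layer, this low level follows from the choice of cells, and the tbx16 cells, chosen with the same limit, were at 109, 26.3, 42.4 and 24.1 CPM. The same markers were also present in the 56 cells left out for foxj1a, described below. Pooled over libraries, gata5 was there at 215, cxcr4a at 1145 and prdx5 at 374 CPM. Their share thus cannot separate endoderm from forerunner cells. The forerunner gene plekhg5b was at 233 CPM in endoderm cells and at 45.8 CPM in tbx16 cells. The cells are described here under their label from gata5, cxcr4a and prdx5. The endoderm cells of a library together held 2290186, 859779, 1035061 and 1536891 UMIs in the same order, with medians of 14098 to 16697 UMIs per cell. Of the 4 libraries, 16 barcodes occurred in more than 1, and 0 of them belonged to an endoderm cell. rbm24a itself stood at 0.436, 1.70, 0.916 and 0 CPM in the endoderm cells, which is too low to check the genotype, and a transcript of a mutated allele would still be counted.

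The genes that chose the cells are given as a description only. The median sox32 level per cell was 23.0, 21.8, 13.9 and 19.9 per 10000 UMIs in sibling 1, sibling 2, Mrbm24a 1 and Mrbm24a 2, in the order used throughout. Mrbm24a 1 was lowest, and 25 of its 61 cells lay between 5 and 10 per 10000 UMIs, against 23 of 108, 10 of 50 and 21 of 85 cells in the others. The sox17 medians were 2.56, 2.24, 1.90 and 2.31 per 10000 UMIs. Just inside the sox32 limit, at 5 to 6 per 10000 UMIs, 22 cells had gata5 at 115 CPM, cxcr4a at 725 CPM and foxa2 at 230 CPM. Just outside, at 4 to 5 per 10000 UMIs, 36 cells had the same genes at 103, 570 and 118 CPM. Neighbouring cells of 3 kinds were left out by the other limits. Cells that met all limits but had foxj1a numbered 56, with foxj1a at 127 CPM and plekhg5b, another forerunner gene, at 387 CPM against 233 CPM in the endoderm cells. Cells that met the sox32 limit without sox17 numbered 111, of which 56 were in Mrbm24a 1, and had a median of only 4176 UMIs. Cells with krt92 numbered 14.

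The share of endoderm cells addresses whether the mutant gastrula made a different amount of endoderm. Among cells of 3000 or more UMIs, endoderm cells made up 3.26% (95% Clopper-Pearson interval 2.68% to 3.92%) of sibling 1 and 2.12% (1.58% to 2.79%) of sibling 2. The shares were 2.39% (1.83% to 3.06%) in Mrbm24a 1 and 2.73% (2.18% to 3.36%) in Mrbm24a 2. Both Mrbm24a values lay between the sibling values. The means were 2.69% ± 0.80 (SD, n = 2) and 2.56% ± 0.24 (SD, n = 2), and the two-sided exact permutation test gave p = 1, in a design that cannot go below 0.33. The sign of the difference was not stable: it changed from -0.13 to 0.55 percentage points with the sox32 limit at 3 per 10000 UMIs, to 0.43 without sibling 1 and to 0.03 without Mrbm24a 1. These intervals cover counting error only.

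Endoderm cells were then set beside the remaining cells of the same library. This contrast is described and not tested, since the cells were chosen by genes measured in them. Levels are CPM of the summed values, and ratios are the log2 of endoderm over remaining cells after 5 CPM were added to each, given as the mean ± SD of the 4 libraries. Of 5065 genes with a mean of at least 20 CPM in either set, 106 were at least 2-fold higher in endoderm cells in each of the 4 libraries (2.09%) and 73 were at least 2-fold lower (1.44%). A gene under 20 CPM in 1 of the sets entered through the set where it was high, which favours a large ratio. At 4-fold, 27 genes remained on the higher side in all 4 libraries. An alternative chosen after seeing the data moved endoderm cells over 2 times the median UMI number of their library to the remaining cells. There 162 genes were higher, 105 of the 106 among them. Mrbm24a 1 had the lowest ratio of the 4 libraries for 74 of the 106 genes.

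Transcription factors of the endoderm are given first. gata5, which acts upstream of sox32, stood at 320, 409, 247 and 291 CPM in endoderm cells against 24.5, 26.6, 32.9 and 25.7 CPM in the remaining cells, a log2 ratio of 3.29 ± 0.42. The libraries did not overlap between the cell sets. foxa2, a forkhead factor of endoderm and of the dorsal midline, stood at 568, 606, 425 and 534 CPM against 52.9 to 67.9 CPM (3.02 ± 0.32). gata6, a relative of gata5, was at 53.5, 59.6, 57.5 and 66.8 CPM and in the remaining cells at 5.89 to 9.21 CPM (2.41 ± 0.19). mixl1, the homeobox factor that relays Nodal, was at 33.9 to 49.0 CPM and had a ratio of 1.23 ± 0.12. Of the endoderm network list, 6 of the 7 counted genes were higher in all 4 libraries and 0 were lower, against 2.09% and 1.44% of all genes. The median log2 ratio was 2.56 against -0.02 over all 5065 genes. This count and median are a description only. gata6 and prdx5 (mean of 19.1 CPM in the remaining cells) passed the 20 CPM limit only through endoderm cells, which favours a high ratio. The exception, foxa3, was at 69.8 to 105 CPM with a ratio of 0.82 ± 0.39. Of the 19 listed genes, 5 were listed near 0 in both cell sets, which for symbols with several entries in the annotation carries no information.

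The migration and adhesion list came next. cxcr4a was at 1762, 2062, 1555 and 1687 CPM against 287 to 307 CPM in the remaining cells (2.56 ± 0.13). ackr3b, an atypical receptor that binds and clears the same chemokine, Cxcl12, stood at 148, 214, 121 and 175 CPM against 8.98 to 11.9 CPM (3.44 ± 0.39). The paralogue cxcr4b went the other way, at 116 to 165 CPM in endoderm cells and 303 to 346 CPM in the remaining cells (-1.20 ± 0.24). The ligand genes were not 2-fold apart: cxcl12a was at 209 to 255 CPM against 129 to 166 CPM.

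cdh6, a classical cadherin, was 1 of only 2 genes that were at least 8-fold higher in every library, at 401, 444, 376 and 446 CPM against 25.4 to 41.2 CPM (3.50 ± 0.32). The other was gpm6ab, a membrane protein known from neurons, at 139, 160, 97.2 and 123 CPM against 4.67 to 5.58 CPM (3.72 ± 0.33). Both were as high in the 56 cells left out for foxj1a, which met the same sox32 and sox17 limits. Which of these are forerunner cells was not tested. Pooled over libraries, cdh6 was at 449 CPM in the 56 cells against 415 CPM in endoderm cells. There gpm6ab was at 131.5 against 130 CPM, ackr3b at 149 against 160 CPM and prdx5 at 374 against 306 CPM. Lower in those cells were gata5 (215 against 312 CPM), cxcr4a (1145 against 1749 CPM) and foxa2 (430 against 539 CPM). In the tbx16 cells described further on, pooled likewise, cdh6 was at 32.9 CPM and gpm6ab at 1.55 CPM. cdh2_1, the N-cadherin entry, was also higher, at 180 to 229 CPM against 80.4 to 93.3 CPM, while cdh1, E-cadherin, was at 135 to 207 CPM against 234 to 267 CPM (-0.49 ± 0.23) and was not counted as lower. snai1a, a repressor of E-cadherin, was at 431 to 569 CPM with a ratio of 1.27 ± 0.14. prex1, an exchange factor that activates Rac in migrating endoderm, was at 53.9 to 96.2 CPM against 6.58 to 8.72 CPM (2.63 ± 0.42), whereas rac1a itself was near equal in both sets (0.03 ± 0.09). Of the 18 counted genes of the migration and adhesion list, 7 were higher and 0 were lower in all 4 libraries, against 2.09% and 1.44% of all genes. Among these 18, ackr3b and prex1 reached 20 CPM only in endoderm cells, which favours a high ratio. Against the tbx16 cells described further on, 3 were higher and 4 lower, against 1.79% and 1.39% of all genes. flrt3, a leucine-rich repeat membrane protein of cell adhesion, and rnd1b_1, a small GTPase entry, had ratios of 2.95 ± 0.26 and 1.82 ± 0.35.

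Among the other genes of the 20 with the highest ratios, several encode enzymes. prdx5, a peroxiredoxin that removes peroxides, ranked next to gpm6ab, at 333, 396, 187 and 295 CPM against 17.6 to 21.7 CPM (3.63 ± 0.53). dhrs3b, of a family of enzymes that reduce retinaldehyde, was at 423, 613, 251 and 379 CPM (3.28 ± 0.45). Mrbm24a 1 was the lowest library for both. s1pr5a, a receptor for sphingosine 1-phosphate, and plpp3, a phosphatase that removes phosphate from such lipids, had ratios of 3.21 ± 0.20 and 2.74 ± 0.18. cyp2aa8, a cytochrome enzyme, was at 431 to 502 CPM (2.76 ± 0.22). The rest of the 20 were gatsl2, lhfp, abtb2a, cpn1, mao, cmtm7 and si:dkey-17e16.13, with ratios from 2.52 to 3.13.

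**Figure D1:**
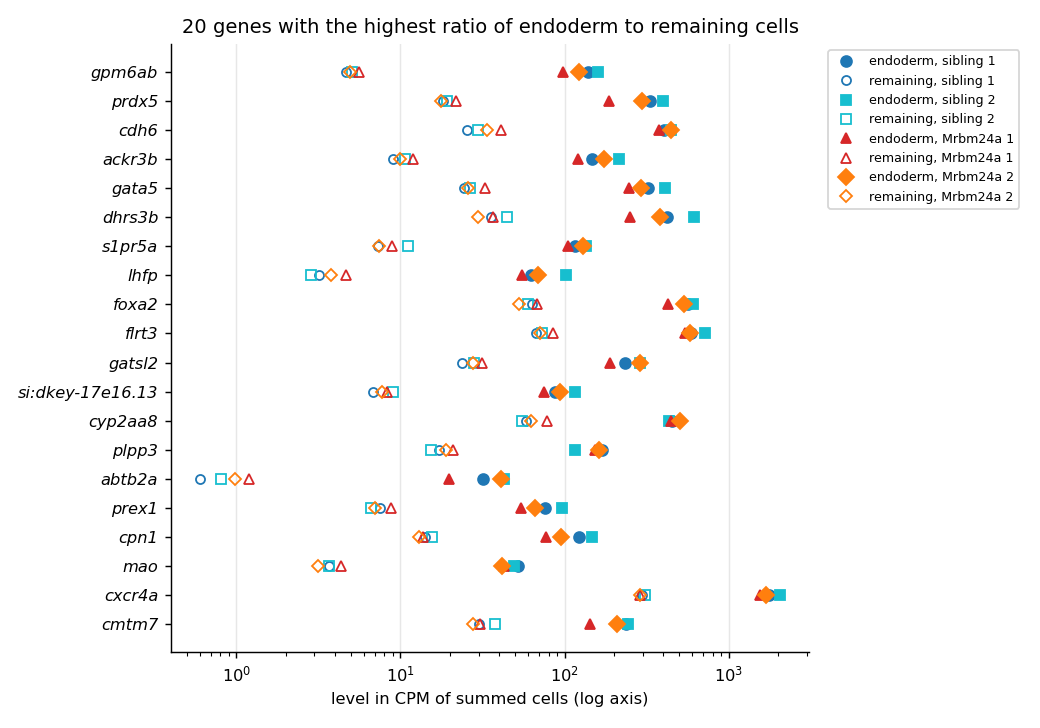
Levels in CPM (horizontal, log axis) of the 20 genes with the highest mean ratio, 1 row per gene. Filled symbols are endoderm cells and open symbols are the remaining cells of the same library, with cxcr4a at the far right at 1555 to 2062 CPM. The filled and open symbols do not overlap for any of these genes, which follows in part from their choice by ratio.

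On the lower side, the strongest ratios belonged to the enveloping layer, the outer epithelium of the embryo. cldne, a claudin of that layer, stood at 18.5, 0.008, 7.22 and 0.638 CPM in endoderm cells and 305 to 431 CPM in the remaining cells. The 12 genes with the lowest ratios, from -5.28 to -4.16, were cldne, cyt1, krt8_1, krt4_1, krt97, mid1ip1a, eppk1, zgc:153665, si:ch211-217k17.9, ponzr5_1, cyt1l and lye. Since the rule excludes cells with krt92, this side follows in part from the choice of cells. Against remaining cells of 3000 or more UMIs with krt92 at most 0.5, which were chosen after seeing the data, only 8 genes were lower in all 4 libraries, while 113 were higher, 105 of them shared with the 106.

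Among those 8 genes, sox2, a factor of the neural ectoderm, was at 45.1, 47.5, 45.7 and 45.8 CPM in endoderm cells and at a mean of 150 CPM in these deep cells (-1.60 ± 0.10). sox19a_1 and sox19b, factors of the same family, had ratios of -1.47 ± 0.27 and -1.21 ± 0.20. The Notch feedback gene nrarpb, the growth factor fgf24, the T-box gene tbx6l, the retinoic acid binding protein gene crabp2b and the protocadherin pcdh1b_1 made up the rest, with ratios from -1.60 to -1.23. Of the 8 counted genes of the ectoderm list, 0 were higher and 2 were lower than in all remaining cells, with a median log2 ratio of -1.35. The shares over all genes were 2.09% and 1.44%. sox3, which missed the count in a library, was at 112 to 174 CPM in endoderm cells against 332 to 445 CPM.

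In the Nodal list, lft2, a secreted Nodal inhibitor and target, was at 31.6, 69.8, 26.2 and 33.8 CPM against 11.0 to 23.2 CPM, and fell short of 2-fold in a library (1.01 ± 0.57). The receptor gene acvr1ba stood at 200 to 262 CPM (0.93 ± 0.12), while the coreceptor tdgf1 (-0.45 ± 0.35), the cofactor foxh1 (-0.73 ± 0.11), the transducer smad2 (0.12 ± 0.12) and the ligand subunit gdf3 (-0.02 ± 0.10) were within 2-fold of the remaining cells. Of the BMP list, id3, an inhibitor of basic helix-loop-helix factors and a BMP target, was at 837, 876, 919 and 858 CPM against 259 to 284 CPM (1.67 ± 0.05). The other 8 counted genes were not higher in all 4 libraries, where 2.09% of all genes were. Cell cycle genes had median log2 ratios near 0, at -0.05 for 13 S phase genes and -0.06 for 16 mitosis genes. Of these, 0 were 2-fold higher or lower in all 4 libraries, which is near the 2.09% and 1.44% of all genes.

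Endoderm shares its place of origin with mesoderm, so it was also compared with 1413 tbx16 cells, which held 3000 or more UMIs, tbx16 at 10 or more per 10000 UMIs, and sox32, sox17, krt92 and foxj1a each at most 0.5. tbx16, a T-box factor of the margin, was itself nearly as abundant in endoderm cells, at 1350, 1602, 1298 and 1299 CPM, as in the cells chosen for it, at 1622 to 1933 CPM, and stood at 543 to 625 CPM in all remaining cells. Of 5039 genes, 90 were at least 2-fold higher in endoderm than in tbx16 cells in all 4 libraries (1.79%) and 70 were lower (1.39%). Of the 106 genes higher than in the remaining cells, 61 were also higher than in tbx16 cells, which is 57.5% of the 106 and 67.8% of the 90. The highest ratios of endoderm to tbx16 cells were those of ackr3b (4.66 ± 0.24), cxcr4a (4.41 ± 0.29), gpm6ab (4.34 ± 0.29) and prdx5 (4.33 ± 0.27). In tbx16 cells, pooled over libraries, ackr3b, gpm6ab and prdx5 were at 1.66, 1.55 and 10.2 CPM. They thus passed the 20 CPM limit only through endoderm cells, which favours a high ratio. cxcr4a was at 72.2 to 90.5 CPM in tbx16 cells, below its level of 287 to 307 CPM in the remaining cells at large. The part that the sox32 and sox17 limits of the tbx16 cells play in these low levels was not tested.

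On the log2 scale, the ratios of mixl1 (-0.03), snai1a (-0.35) and the fibronectin entry fn1a_1 (-0.12) between these sets were within 2-fold, although each was above 2-fold against all remaining cells. Of the 9 counted genes of the lateral and ventral mesoderm list, 6 were lower in endoderm than in tbx16 cells in all 4 libraries (1.39% of all genes) and 1, the GATA factor gene gata2a, was higher (1.79% of all genes), with a ratio of 1.42. msgn1, a basic helix-loop-helix factor of presomitic mesoderm, stood at 177, 127, 193 and 176 CPM in endoderm cells and at 1522, 1454, 1073 and 1047 CPM in tbx16 cells (-2.88 ± 0.48). tbx6l (-3.16 ± 0.32), mespaa_1 (-2.43 ± 0.70) and ta, the zebrafish Brachyury gene (-1.77), followed. The apelin receptor gene aplnrb, which guides mesoderm cells, was at 37.2 to 44.5 CPM in endoderm cells and at a mean of 240 CPM in tbx16 cells (-2.39). rbm38, the only counted gene of the Rbm list and a relative of rbm24a, was at 39.4 to 69.7 CPM in endoderm cells and 411 to 443 CPM in tbx16 cells (-2.79 ± 0.40). Cells with gsc at 5 or more per 10000 UMIs met the same UMI, sox32, sox17, krt92 and foxj1a limits as tbx16 cells. These cells of the dorsal organizer numbered 67, too few per library to compare. Over all cells, foxa2 was as high in them as in endoderm, at 593 against 539 CPM. gata5 was at 112 against 312 CPM and cxcr4a at 83.2 against 1749 CPM. The part that the sox32 limit plays in these low levels was not tested.

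**Figure D2:**
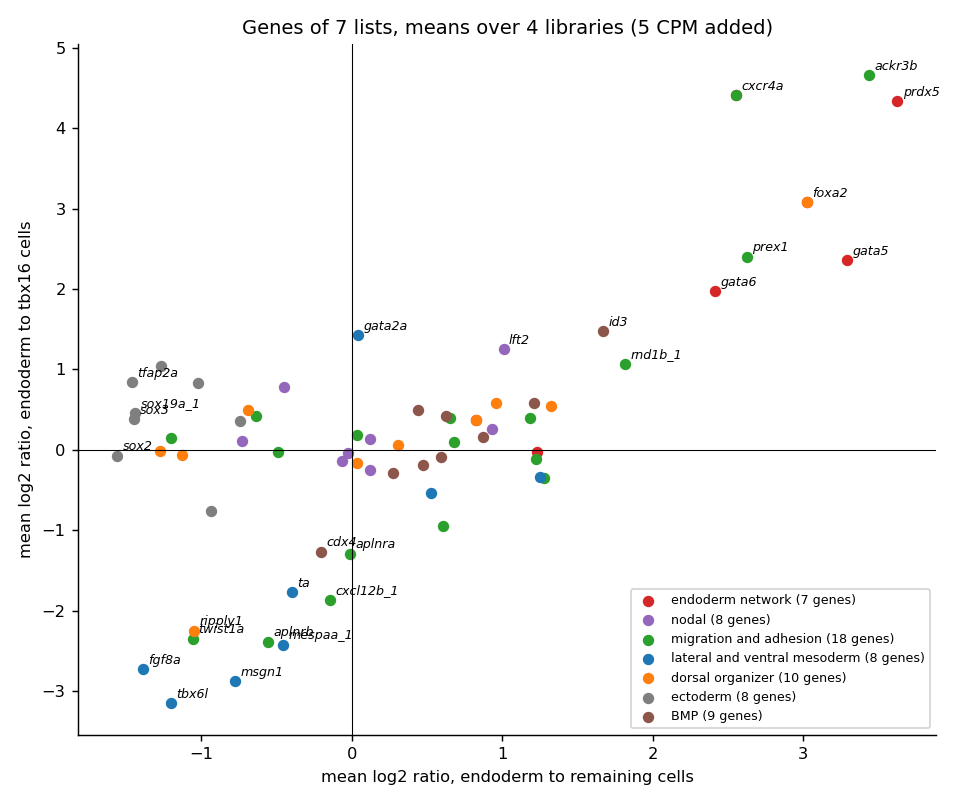
Mean log2 ratio of endoderm to remaining cells (horizontal) against that of endoderm to tbx16 cells (vertical) for counted genes of 7 lists, 1 point per gene, each the mean of 4 libraries. prdx5, ackr3b and cxcr4a lie at the upper right, high against both, whereas msgn1 (-0.77 and -2.88) and tbx6l lie at the lower left, and a gene that belongs to more than 1 list, such as foxa2, shows the colour of the list drawn on top.

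Endoderm cells differed among themselves along the level of sox32. Since sox32 chose the cells and was cut at 5 per 10000 UMIs, this is a description only. The levels pool the cells of all libraries, and Mrbm24a 1 gave 25 of the 79 lowest and 21 of the 153 highest cells. In 79 cells with sox32 at 5 to 10, 72 cells at 10 to 20 and 153 cells at 20 or more per 10000 UMIs, cxcr4a stood at 852, 1602 and 2861 CPM. gata5 followed the same order, at 134, 342 and 499 CPM, as did foxa2, at 273, 595 and 810 CPM, and tbx16, at 847, 1417 and 1926 CPM. sox3, the ectoderm gene, ran the other way at 268, 104 and 11.8 CPM, and the median UMI number was 29328, 15534 and 14273. Cells low in sox32 thus had more UMIs and more sox3. The sox17 limit is a value per cell and not per UMI, so a cell low in sox17 meets it more easily when deep. Cells that met the sox32 limit without sox17 had a median of 4176 UMIs. The order of UMI numbers thus follows in part from the rule. Of the endoderm cells of sibling 1, 18 (16.7%) exceeded 2 times the median UMI number of their library, against 9.70% of its other cells of 3000 or more UMIs, while the shares in Mrbm24a 1 were 16.4% and 16.0%. Doublets were removed by the authors with Scrublet, and whether the remaining deep cells hold more than 1 cell was not tested here.

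Over single cells within a library, sox32 and cxcr4a had a mean Pearson's r of 0.72 over the 4 libraries (0.69 to 0.80). All r values are a description over 50 to 108 cells that share a library and a depth. Those with sox32 use a gene that chose the cells. sox32 with sox3 had -0.65 (-0.71 to -0.55) and sox32 with id1, a target of BMP signalling, had -0.59 (-0.67 to -0.49). With the cells of more than 2 times the median UMI number left out, these means were 0.66, -0.52 and -0.48, and the mean r of sox32 with the log of the UMI number changed from -0.31 to 0.04. tbx16 (0.62), gata5 (0.56), foxa2 (0.54), cdh6 (0.45) and prdx5 (0.28) had positive mean r with sox32 over all endoderm cells.

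Dorsal genes also varied among endoderm cells. After thinning every cell to 3000 UMIs, the ratio of variance to mean over endoderm cells had a median of 1.01 over 2955 genes, close to counting noise, and 22 genes were at 2 or more in each library. The 12 genes with the highest ratios included the mitochondrial ribosomal RNA genes mt-rnr1 and mt-rnr2, the histone genes hist1h4l and h3f3a, the small heat shock gene hspb1, the apolipoprotein gene apoc1, both entries of akap12b, and LOC110439423. The others were chd (7.06), nog1 (4.65) and id1 (4.59), of which chd and nog1 encode secreted BMP inhibitors of the dorsal side. chd and nog1 were high in the same cells (mean r 0.69, 0.62 to 0.76), as were nog1 and frzb, a secreted Wnt inhibitor (0.74, 0.60 to 0.85), and nog1 and gsc_2, the gsc entry with counts (0.70, 0.62 to 0.84). chd opposed the ventral homeobox gene ved (-0.50, -0.63 to -0.31) and the BMP pseudoreceptor gene bambia (-0.44), which in turn went together (0.68). These dorsal relations were as strong without the deepest cells, at 0.69 for chd with nog1 and -0.53 for chd with ved. The mean r of chd was -0.34 with sox32 and 0.03 with the log of the UMI number.

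Cells with values above 0.5 for at least 2 of nog1, frzb and gsc_2, a set chosen after seeing the data, numbered 30 of 108 (27.8%, Clopper-Pearson interval 19.6% to 37.2%), 9 of 50 (18.0%, 8.58% to 31.4%), 22 of 61 (36.1%, 24.2% to 49.4%) and 28 of 85 (32.9%, 23.1% to 44.0%). The intervals overlap, and they cover counting error only. The share of all remaining deep cells was also highest in Mrbm24a 1, at 33.1% against 14.7% to 20.2%. chd stood at 947, 940, 966 and 1213 CPM in these endoderm cells and at 149, 337, 296 and 312 CPM in the other endoderm cells. Their median depth was higher in every library, for example 26684 against 16190 UMIs in sibling 1.

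**Figure D3:**
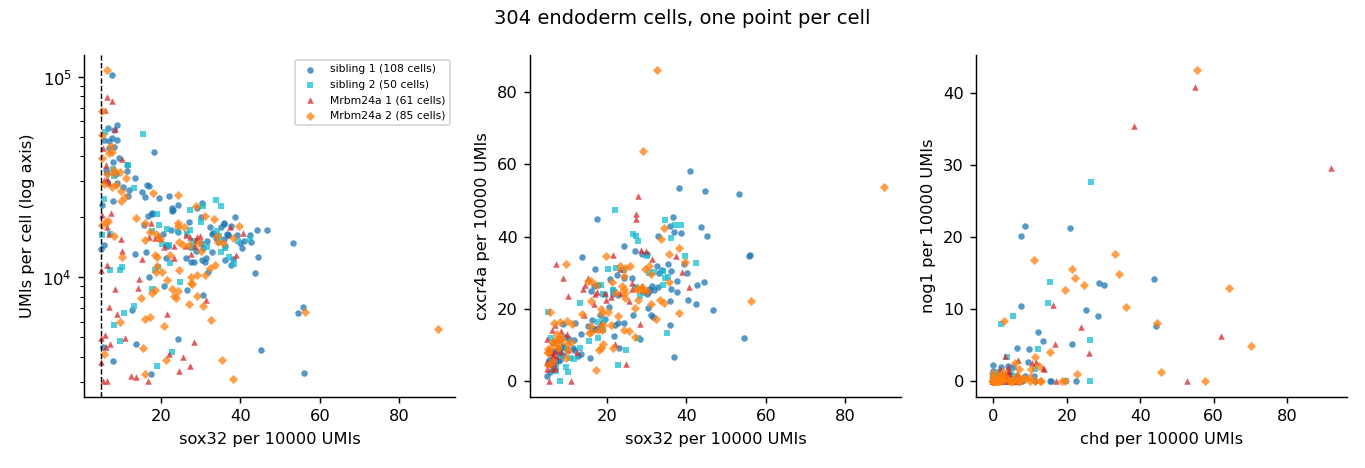
The 304 endoderm cells, 1 point per cell, coloured by library: sox32 per 10000 UMIs against UMIs per cell (log axis, dashed line at the limit of 5), sox32 against cxcr4a, and chd against nog1, both per 10000 UMIs. The deepest cells lie near the sox32 limit, where the sox17 limit favours deep cells. cxcr4a rises with sox32 (mean r 0.72), and a minority of cells holds high chd and nog1.

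**Figure D4:**
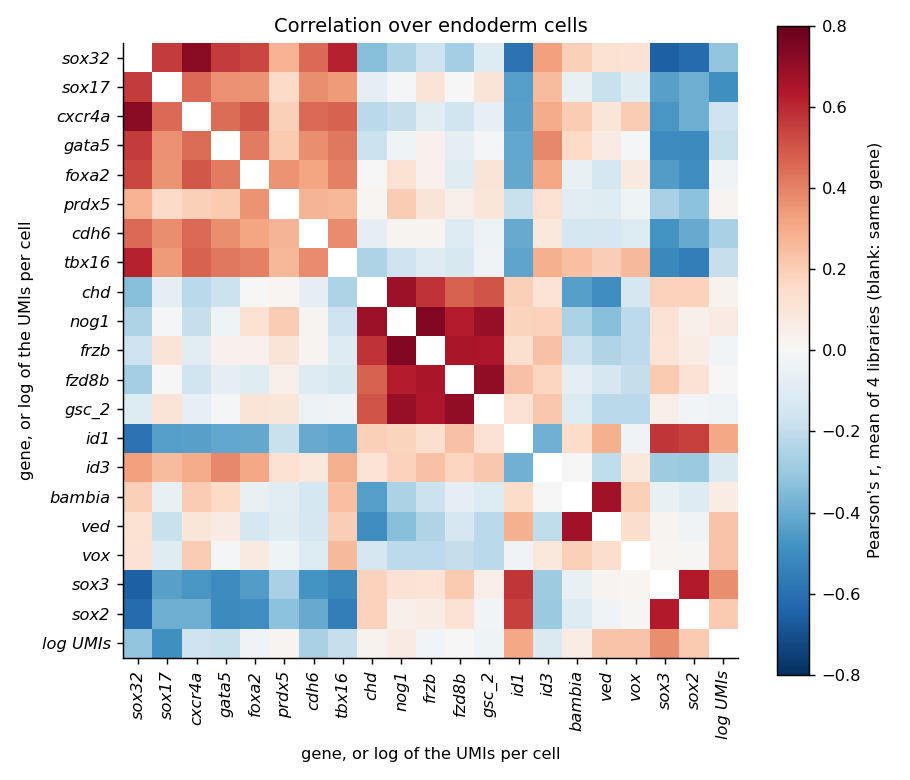
Mean over the 4 libraries of Pearson's r over endoderm cells for pairs of 20 genes and the log of the UMIs per cell, from blue (negative) to red (positive). One red block joins sox32, cxcr4a, gata5, foxa2 and tbx16 and another joins chd, nog1, frzb, fzd8b and gsc_2, with r of 0.69 for chd and nog1, while sox3 is blue against the first block.

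Whether loss of maternal Rbm24a changed gene expression in endoderm was tested with edgeR's quasi-likelihood test on the summed values of the endoderm cells, with the library as the unit. Of 7304 genes tested, 2 passed an adjusted p of 0.05 (0.0274%), 1 higher and 1 lower in Mrbm24a (0.0137% each). akap12b_1, one of 2 entries for the scaffold protein gene akap12b, stood at 249 and 325 CPM in the sibling and 699 and 631 CPM in the Mrbm24a endoderm cells, a log2 fold change of 1.24 (SE 0.15, adjusted p = 0.0116). The genotypes did not overlap, as for 38.4% of all genes tested, and the remaining cells showed the same order at 159, 186, 362 and 350 CPM. The other entry, akap12b, was the more abundant, at 2190, 2541, 1731 and 1738 CPM, and was not called (log2 fold change -0.43, adjusted p = 0.533). How reads were divided between these entries is not given in the sources used here, so the values of either are uncertain.

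The lower gene was si:dkey-67c22.2_1, at 34.0, 27.7, 3.50 and 2.01 CPM in endoderm cells (log2 fold change -3.51, SE 0.40, adjusted p = 0.0116) and at 31.7, 28.1, 5.47 and 4.13 CPM in the remaining cells. Both calls were lost, with 0 genes called, without Mrbm24a 1, without Mrbm24a 2, and with the deepest endoderm cells left out, whereas 415 genes were called without sibling 1 and 74 without sibling 2. Over the main fit and all its alternatives, the log2 fold change of akap12b_1 lay between 1.09 and 1.60. That of si:dkey-67c22.2_1 lay between -5.12 and -3.02. In a fit with 1 library left out, the single library left in a genotype takes its spread from the other genotype. At an unadjusted p under 0.05 stood 500 genes, 6.85% of those tested, and DESeq2 and limma also called 2.

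No gene of the endoderm, Nodal, migration, mesoderm, dorsal, ectoderm or BMP lists passed between the genotypes. Only 2 of all 7304 genes did (0.0274%), so 0 in lists of 8 to 18 tested genes is near that share. Of the endoderm network, 8 genes were tested, 4 with a positive and 4 with a negative fold change, with a median log2 fold change of -0.08 against 0.01 over all genes. gata5, at 320 and 409 CPM in the sibling and 247 and 291 CPM in the Mrbm24a libraries, had a log2 fold change of -0.41 with an adjusted p of 0.620 by edgeR. prdx5 (-0.56, adjusted p = 0.610) and prex1 (-0.45, adjusted p = 0.681) ran the same way. The part that the lower sox32 level of Mrbm24a 1 plays in these values was not tested. twist1a, a mesenchymal factor, was at 23.3 and 35.1 against 10.1 and 4.87 CPM (-2.01, adjusted p = 0.249). frzb (0.88, edgeR adjusted p = 0.465) and chd (0.65, edgeR adjusted p = 0.271) were at higher levels in both Mrbm24a libraries, chd at 692 and 758 CPM against 452 and 481 CPM. The genotypes did not overlap for 38.4% of all genes tested.

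**Figure D5:**
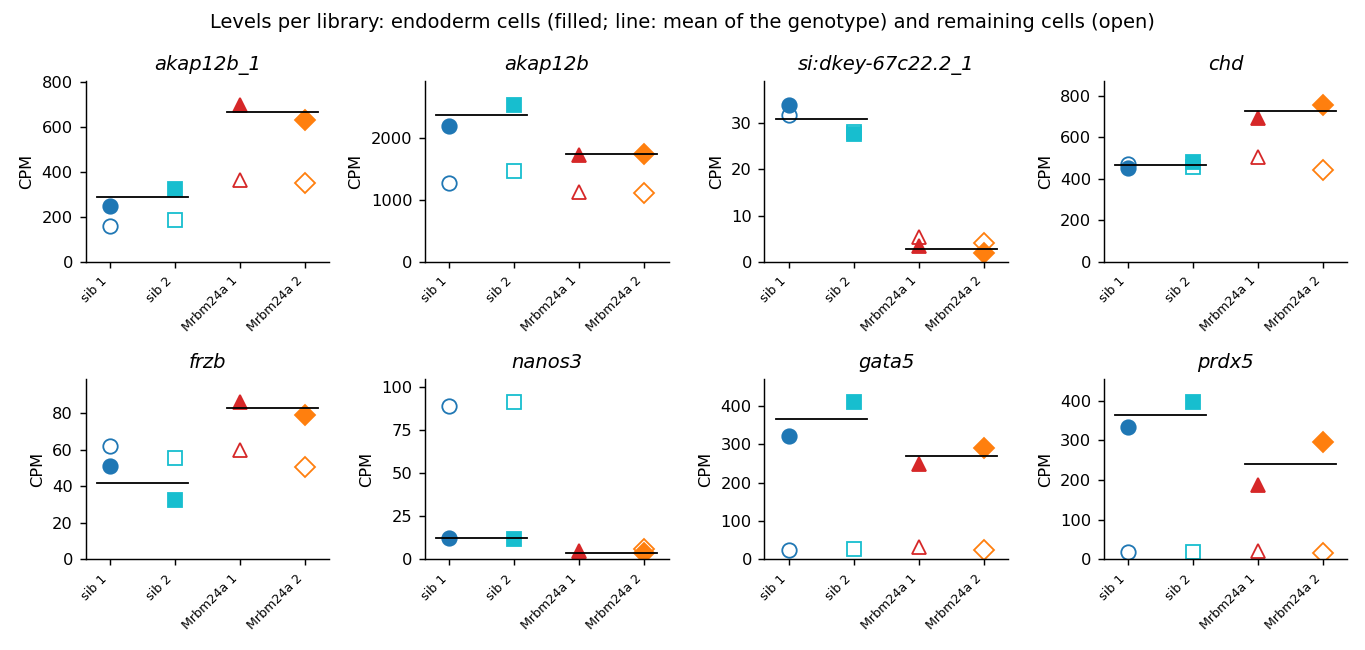
Levels in CPM per library of 8 genes, with filled symbols for endoderm cells (line: mean of the genotype) and open symbols for the remaining cells. akap12b_1 and si:dkey-67c22.2_1, the only genes called, shift alike in both cell sets, while chd is at 692 and 758 CPM in Mrbm24a endoderm cells and at 441 to 506 CPM in all remaining cells.

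The difference between the genotype change in endoderm and that in the remaining cells of the same libraries was tested as an interaction. edgeR called 38 of 16243 genes (0.234%), 11 with a higher (0.0677%) and 27 with a lower change in endoderm (0.166%). chd was the first among those higher, with an interaction of 0.60 on the log2 scale (SE 0.08, adjusted p = 6.1e-12), since its level in the remaining cells was 472, 458, 506 and 441 CPM. frzb followed at 0.96 (adjusted p = 7.2e-05), from 51.0, 32.2, 85.8 and 79.1 CPM in endoderm against 50.4 to 62.1 CPM in the remaining cells. The part that the sox32 level of the endoderm cells plays in the values of chd and frzb was not tested. Among those lower, sox32 and sox17 chose the cells, so their calls are a description and not a test. The enveloping layer genes lye (-1.78) and krt4_1 (-3.93) were also called, at endoderm levels that follow in part from the krt92 limit. The endoderm genes gata5 (-0.62), prdx5 (-0.65) and cdh6 (-0.51) were among the calls. Against remaining cells without sox32, a setting added after seeing the data, edgeR gave interactions of -0.32 (adjusted p = 0.660) for gata5, -0.33 (adjusted p = 0.777) for prdx5 and -0.45 (adjusted p = 0.0539) for cdh6, with 0.59 for chd and 1.16 for frzb. Of the 38 genes, 14 to 20 were also called with 1 library left out, and 17 with sox32 at 8 or more, where 47 genes passed. The fit uses 1 dispersion per gene for sums over 50 to 108 endoderm cells and over 3341 to 3867 remaining cells. limma on the log2 ratio of each library, which uses the spread of the ratios themselves and was added after seeing the data, called only 1 of 5068 genes (0.0197%), and neither chd (unadjusted p = 0.0089, adjusted p = 0.813) nor frzb (adjusted p = 0.813) passed, so the 38 calls rest on the choice of test. The 1 gene, nanos3, is a germ cell gene that was low in endoderm cells.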

How the data were processed

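RNA of single cells was measured in 4 libraries (10x Genomics 3′ chemistry), 2 sibling and 2 Mrbm24a. The authors filtered reads with Trimmomatic, counted UMIs with Cell Ranger, applied DecontX against ambient RNA and Scrublet against doublets, and deposited 1 matrix of these estimated counts, of which 0.552% of the stored values were whole within 1e-06. The submitters' processing notes name the build GRCz10, and no coordinates were used. Libraries were taken from barcode prefixes matched to the labels.

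Cells were chosen by the limits given above. Members, lists and tests were chosen with earlier results of these data known. Genes named are the 20 highest and 12 lowest ratios among genes past 2-fold in all 4 libraries, up to 10 called genes per direction in each test, the 12 most variable genes, and list genes of 20 CPM or more in endoderm cells or where a list is described. A listed symbol was read from its entry, or RefSeq synonym, with the highest sum. Values were summed per library and rounded for the quasi-likelihood test of edgeR 4.0.16, after filterByExpr and TMM scaling, with p-values adjusted over all genes tested by Benjamini-Hochberg, with DESeq2 1.42.0 and limma 3.58.1 as alternatives (R 4.3.3, Python 3.11.15, scipy 1.17.1). Both models were tested on simulated data. Sums of 859779 to 2290186 UMIs per library set the precision. Alternatives changed the limits, the remaining cells, the pseudocount, the filters and the libraries. The sequences of the genes were not used here. A listed gene is not reported here.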

Additional observations from a re-analysis of the deposited data

Results flagged for a closer look

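edgeR's interaction test called 38 of 16243 genes (0.234%), and the 20 flagged here had the smallest p-values in their direction. Their values are on the log2 scale. limma on the log2 ratio of each library, added after seeing the data, called only 1 of 5068 genes (0.0197%) and none of the 38. The calls thus rest on the choice of test. Against remaining cells without sox32, also added, edgeR called 20 of the 38. There gata5 (edgeR adjusted p = 0.660) and prdx5 (edgeR adjusted p = 0.777) did not pass. The change in endoderm was higher for chd (0.60), frzb (0.96), msgn1 (0.52), nrarpa (0.53), sox3 (0.47), fzd8b (0.73), anxa1a (2.31), mt-rnr1 (0.34), LOC100149863 (0.87) and LOC100534909 (0.36). Of these, sox3 (-0.62), LOC100149863 (-0.30) and LOC100534909 (-0.13) changed sign with sox32 at 8 or more, anxa1a (-7.40) and mt-rnr1 (-0.19) without Mrbm24a 2, and fzd8b (-0.31) without Mrbm24a 1. The msgn1 levels in endoderm, at 177, 127, 193 and 176 CPM, overlapped between the genotypes, and the remaining cells were at 323, 329, 266 and 243 CPM. The Wnt receptor gene fzd8b stood at 62.1, 14.5, 131 and 34.4 CPM in endoderm cells, so that Mrbm24a 1 was highest and the genotypes overlapped. The change in endoderm was lower for sox32 (-0.96) and sox17 (-0.95), which chose the cells, and for gata5 (-0.62), prdx5 (-0.65), cdh6 (-0.51), cst3 (-0.56), lye (-1.78), LOC101885164 (-0.69), LOC108190024 (-0.39) and si:ch211-15b10.6 (-0.61). The enveloping layer gene lye was at 106, 15.2, 36.5 and 1.92 CPM in endoderm cells, so that sibling 1 was highest, and its interaction was 0.49 without sibling 1. The level of lye in endoderm cells follows in part from the krt92 limit. Its value, like those of sox32 and sox17, is a description and not a test. The gene nanos3 was flagged by limma on the log2 ratio of each library, with a difference of 2.20 (adjusted p = 0.0243). Its interaction by edgeR was 2.27 and did not pass (adjusted p = 0.0658). nanos3 was at 89.2, 91.3, 5.06 and 6.09 CPM in the remaining cells and at 12.5, 12.1, 3.79 and 3.80 CPM in endoderm cells. Both Mrbm24a endoderm levels lay below the 5 CPM added before the ratio was taken.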

How the results depend on the processing

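The difference in the share of endoderm cells, Mrbm24a minus sibling, was -0.13 percentage points and became 0.55 with sox32 at 3 or more per 10000 UMIs and 0.37 with the sox32 limit without sox17 (added after seeing the data), and it ranged from -0.70 to 0.43 with 1 library left out. The 2 genes changed between genotypes became 52 with no filter on low counts, 7 with sox32 at 8 or more, 4 with no exclusion by krt92 or foxj1a, and 0 (409 at an unadjusted p under 0.05, edgeR) without cells of over 2 times the median UMI number (added), and ranged from 0 to 415 with 1 library left out. Deviations of same-numbered libraries had a correlation of 0.02 over 7304 genes, a check that cannot show pairing in a small part of them. Replicate numbers are shared between the genotypes, but the labels state no pairs, so the libraries were not taken as pairs. The study names 2 batches of cells, which the labels do not tie to these numbers. In endoderm cells, enveloping layer genes without krt92 summed higher in replicate 1 of both genotypes (186 against 35.5 CPM and 73.7 against 14.9 CPM). In the remaining cells they did not (2175 against 2285 CPM and 1343 against 1457 CPM), and a batch was not tested. With the replicate number as a block, 50 genes were called. The 38 interaction calls became 23 against remaining cells without sox32 and 1 with limma on the log2 ratio of each library (both added), and 29 to 35 with 1 library left out. Of the 38 genes, 27 were among 56 called with sox32 at 3 or more, 17 among 47 with sox32 at 8 or more, and 26 among 53 with no exclusion by krt92 or foxj1a. The 106 higher and 73 lower genes became 52 and 48 with a pseudocount of 20 CPM and 67 and 36 at a mean of 50 CPM or more. They became 162 and 115 when endoderm cells of over 2 times the median UMI number were moved to the remaining cells. The lower genes also became 114 with sox32 at 8 or more, 117 against remaining cells without sox32 and 8 against deep remaining cells with krt92 at most 0.5. In that last setting 9 of the 12 lowest genes changed sign, cyt1 to 0.16, krt8_1 to 0.034, krt4_1 to 0.30, mid1ip1a to 0.21, zgc:153665 to 0.12, si:ch211-217k17.9 to 0.20, ponzr5_1 to 0.068, cyt1l to 0.16 and lye to 0.036. With 1 library left out, 106 higher genes became 108 to 128 and 73 lower genes 77 to 99. Interactions that changed sign with 1 library left out were mt-rnr1 (-0.19 to 0.67) and anxa1a (-7.40 to 2.55) without Mrbm24a 2, fzd8b (-0.31 to 2.47) without Mrbm24a 1, and lye (-4.89 to 0.49) without sibling 1. With sox32 at 8 or more, LOC100149863 became -0.30, LOC100534909 -0.13 and sox3 -0.62. With endoderm cells of over 2 times the median UMI number moved to the remaining cells, these became -0.34, -0.060 and -0.19, and anxa1a -2.28. For each of these changes the cause was not tested. The other values for single genes kept their direction. Depth limits the genotype test to genes that 50 to 108 cells per library can show.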

Other observations

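nanos3, a gene of primordial germ cells, was low in endoderm cells, at 12.5 and 12.1 CPM in the sibling and 3.79 and 3.80 CPM in the Mrbm24a libraries, and stood at 89.2, 91.3, 5.06 and 6.09 CPM in the remaining cells. Its share of endoderm cells with a value above 0.5 was 22.2%, 22.0%, 6.56% and 8.24%, against 17.1%, 15.0%, 9.28% and 10.6% of the remaining cells of 3000 or more UMIs, so endoderm cells listed it about as often as other cells. ddx4, another germ cell gene, was at 235 to 296 CPM in endoderm cells and at 133 to 222 CPM in the remaining cells. It was listed above 0.5 in 90.2% to 96.3% of endoderm cells and in 86.5% to 92.5% of tbx16 cells. Among the remaining cells of 3000 or more UMIs the share was 74.1% to 89.6%.

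The gene entry LOC101885164 was at 818, 685, 432 and 619 CPM in endoderm cells and at 184 to 207 CPM in the remaining cells. Both Mrbm24a values were below both sibling values in endoderm, but the genotypes did not overlap for 38.4% of all genes tested. The gene was not called between genotypes (edgeR adjusted p = 0.610). Mitochondrial genes took 1.55%, 1.89%, 0.801% and 1.39% of the UMIs of endoderm cells, so Mrbm24a 1 was lowest.

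Cells with sox17 but sox32 under 1 per 10000 UMIs numbered 438 and had a median of 27786 UMIs. Their levels of gata5 (29.9 CPM), cxcr4a (256 CPM) and foxa2 (59.2 CPM) were near those of the remaining cells.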
